A study of Mus musculus with 25 samples.

Results

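Mouse melanomas that shrank under an antibody against CTLA-4 (responders) were compared with melanomas that kept their size under the same antibody (stable tumours). The 14 tumours, 8 responders and 6 stable, were taken by the outcome in their sample titles from a series of 25, and each count column was matched to a title by the mouse identifier. All 14 grew from B2905, the M4 melanoma line, in C57BL/6 mice and received anti-CTLA-4 at 10 mg/kg in repeated doses from an average size of 75 mm3, with outcome read 10 to 11 days past the final dose. The other 11 libraries, from 6 tumours that grew under the antibody (non-responders) and 5 that received an isotype IgG2b antibody (controls), entered the estimate of spread. B2905 is a single cell line, and 1 library of bulk RNA was made from each tumour and each mouse, so the p-values measure the spread between these animals. Within bulk RNA, fewer cells of a type and less RNA per cell cannot be told apart.

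CTLA-4 is a receptor on T cells that competes with the activating receptor CD28 for its ligands, and an antibody that blocks it lets T cells respond more strongly. Activated T cells release interferon gamma, which acts through the kinases JAK1 and JAK2 to raise antigen presentation and chemokines such as CXCL9. Macrophages, complement, matrix and vessels make up much of the tissue around the melanoma cells.

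The libraries of the groups differed in what they held. The total per tumour was 8.76 to 21.2 M counts in responders and 14.8 to 22.8 M in stable tumours, of which protein-coding genes held 3.15 to 18.4 M and 12.8 to 19.3 M. Protein-coding genes took 23.8, 72.7, 74.3, 54.2, 87.0, 70.3, 62.0 and 67.3% of the counts in responders 1 to 8, and between 83.8 and 89.2% in the stable tumours. Responder 5 lay inside the stable range and the other 7 responders lay below it. The mean was 63.9% ± 18.8 (SD, n = 8) in responders and 86.2% ± 1.86 (SD, n = 6) in stable tumours, a difference of -22.2 percentage points (two-sided exact permutation test, p = 0.00633, adjusted p = 0.0174 over 11 measures). The non-responders, at 82.9 to 88.4%, and the controls, at 86.4 to 88.4%, lay near the stable tumours.

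Of the classes measured, the largest rise in mean share was that of 7SL RNA, the scaffold RNA of the signal recognition particle that guides secreted proteins to the endoplasmic reticulum. It took from 5.09 to 47.0% of counts in responders with a median of 13.2%, and from 1.48 to 6.05% in stable tumours with a median of 4.44%. Only responder 5 overlapped the stable tumours (exact permutation p = 0.00866, adjusted p = 0.0190).

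The long non-coding annotations Gm26917 and Gm42418 together took 4.29% ± 2.76 (SD, n = 8) in responders and 0.598% ± 0.271 (SD, n = 6) in stable tumours (exact permutation p = 0.00633, adjusted p = 0.0174). Small nucleolar RNAs, which guide the modification of ribosomal RNA, took 0.489% ± 0.234 and 0.167% ± 0.0584 (SD, exact permutation p = 0.00433, adjusted p = 0.0174). Small nuclear RNAs, the cores of the spliceosome, took 0.512% ± 0.254 and 0.123% ± 0.0984 (SD, exact permutation p = 0.00533, adjusted p = 0.0174), with 6 of 8 responders above every stable tumour. Mitochondrial ribosomal RNA, at 5.42% ± 3.95 and 2.87% ± 2.23 (SD), did not pass (exact permutation p = 0.178, adjusted p = 0.196), and neither did the mitochondrial messenger RNAs at 0.448% ± 0.247 and 0.665% ± 0.153 (SD, exact permutation p = 0.0859, adjusted p = 0.118). Every comparison below was made within protein-coding genes.

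**Figure D1:**
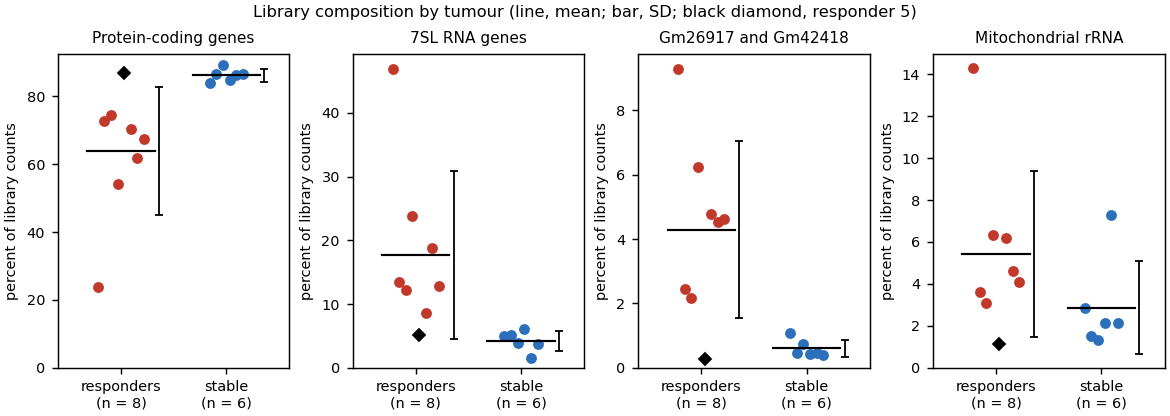
Percent of all counts in each tumour's library that fell to protein-coding genes, 7SL RNA genes, Gm26917 with Gm42418, and mitochondrial ribosomal RNA. Points are tumours, horizontal lines are means and bars are SD; responder 5 (black diamond), at 87.0% protein-coding, lies with the 6 stable tumours, and responder 1, at 23.8%, is the farthest from them.

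Of 14881 protein-coding genes tested with edgeR's quasi-likelihood test and Benjamini-Hochberg adjustment, 4615 (31.0%) passed an adjusted p of 0.05. In responders 2261 were higher (15.2%) and 2354 lower (15.8%), with a median log2 fold change over all genes of -0.03. Most differences were small: 690 of the called genes had an estimate of at least 2-fold, and a test against a 2-fold threshold (edgeR's glmTreat) called 0 genes, with 345 at an unadjusted p under 0.05. With no scaling factor between libraries the median of all genes moved to 0.12 and 69.3% of the calls were higher, against 49.0% with TMM scaling. Leaving out responder 5 raised the number called to 6518 (44.0%; 19.6% higher and 24.3% lower), and leaving out stable 4 lowered it to 3021. Without responders 1 and 4, whose protein-coding shares were under 60%, 2052 genes were called (13.9%), 1214 higher (8.23%) and 838 lower (5.68%).

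When each library's protein-coding share entered the fit as a covariate, 0 genes passed (0%) in edgeR's quasi-likelihood test, with 1347 at an unadjusted p under 0.05 and a smallest adjusted p of 0.404. Of the genes called higher 97.9% kept their sign, and of those called lower 99.2%, against 78.4% of all genes tested. Their median log2 fold changes went from 0.65 to 0.35 and from -0.52 to -0.23. The called genes were chosen by their differences in these same libraries, so the kept signs are no separate support for those differences. The covariate fit rested on single tumours. Without responder 5 it called 929 genes (6.27%), 623 higher (4.20%) and 306 lower (2.06%), and without responder 1 it called 0, with 195 at an unadjusted p under 0.05. For most differences given below, outcome cannot be told apart from what the library held, and a median with the covariate is given for most lists. Many of these medians moved towards 0 without responder 1 and away from it without responder 5, and the values are given for some of the lists. Others moved differently, such as that of skeletal muscle genes.

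The differences also followed gene length. The 14881 genes were ordered by length and cut into 5 classes of nearly equal number. Among the 2979 genes of the shortest class, with 204 to 2394 annotated exon bases, the median log2 fold change was -0.29, with 25.2% called lower and 4.70% higher in responders. Among the 2975 genes of the longest class, with 7494 to 123179 exon bases, the median was 0.19, with 6.96% lower and 29.0% higher. The 3 classes between them lay in order of length, at -0.14, -0.04 and 0.07. In the covariate fit the shortest and longest classes stood at -0.15 and 0.13. The part of gene length in the list results was not tested. The median exon length is given below for the ribosomal protein, oxidative phosphorylation and histone lists. Other lists also had medians inside the shortest class. Examples are MHC class II (1944 bases), resident and alternatively activated macrophage (2104.5) and CD8 and cytotoxic genes (1459.5).

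**Figure D2:**
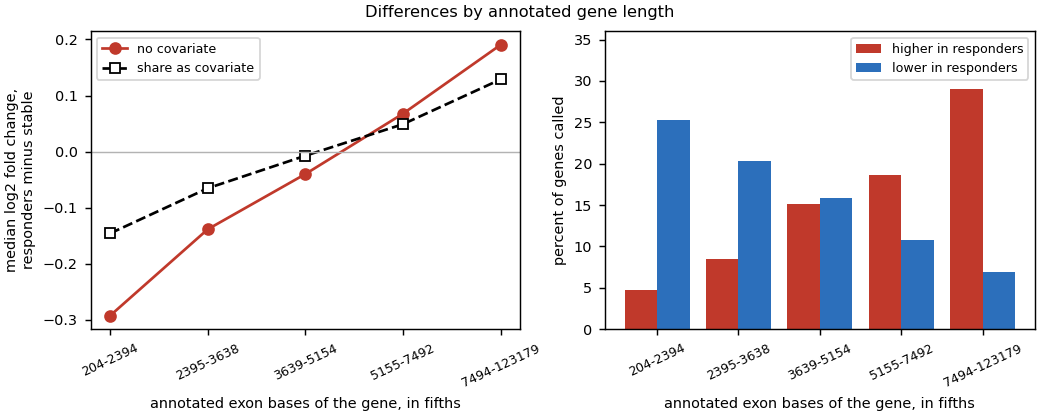
Median log2 fold change (left, responders minus stable tumours) and percent of genes called (right) in 5 length classes of the 14881 genes tested, by annotated exon bases. The median goes from -0.29 in the shortest class to 0.19 in the longest, and from -0.15 to 0.13 in the covariate fit (open squares).

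Interferon gamma genes were lower in the shrinking tumours. Of 26 tested members of the pathway, 8 fell (30.8%, against 15.8% of all genes) and 0 rose, with a median log2 fold change of -0.63, or -0.39 with the covariate (-0.29 without responder 1 and -0.57 without responder 5). With no scaling factor 2 of the 26 were lower (median -0.49), when 9.86% of all genes were. The mean log2 CPM of the list (CPM, TMM-scaled, with a tumour's protein-coding counts as the denominator) lay between 6.73 and 7.60 in responders with a median of 7.13. In stable tumours it lay between 7.59 and 7.99 with a median of 7.69, so that only responder 5, at 7.60, reached the lowest stable tumours. Leaving out 1 tumour gave from 2 members lower (without responder 1) to 16 (without responder 5), with medians from -0.74 to -0.57.

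The ligand gene Ifng was at 2.07 to 8.41 CPM in responders (median 4.61) and 6.31 to 11.4 CPM in stable tumours (median 7.28), a log2 fold change of -0.72 that did not pass (SE 0.49, adjusted p = 0.269). Of the receptor genes, Ifngr2 fell by 0.31 on the log2 scale (adjusted p = 0.0423) and Ifngr1 did not pass (-0.42, adjusted p = 0.135). Of the signalling genes, Jak1 fell by 0.46 (SE 0.11, adjusted p = 0.00526), with 7 of 8 responders below every stable tumour.

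Among the pathway's targets, 5 of 17 fell. Cxcl9 (ENSMUSG00000029417.9, chr5:92321347-92328079, minus strand) encodes a chemokine that draws T cells carrying the receptor CXCR3. It was at 149 to 564 CPM in responders, with a median of 313, and at 612 to 732 CPM in stable tumours, with a median of 652. All 8 responders, responder 5 included, lay below all 6 stable tumours. Its log2 fold change was -1.02 (SE 0.37, adjusted p = 0.0385), or -0.51 with the covariate (SE 0.45). The call was lost when any tumour other than responder 2 or 5 was left out, with log2 fold changes from -1.18 to -0.91. Both groups stood above the controls, in which Cxcl9 was at 36.5 ± 18.1 CPM (SD, n = 5), and the non-responders were at 340 ± 232 CPM (SD, n = 6). The interferon-induced GTPase genes Gbp3 (-0.77), Igtp (-0.84) and Tgtp2 (-0.84) also fell, as did Wars (-0.73), with adjusted p from 0.00931 to 0.0459. Near-identical neighbours such as Tgtp1 and Tgtp2 share reads, so their counts one by one are uncertain.

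MHC class I presentation shows cell-made peptides to CD8 T cells, and 8 of its 16 tested genes fell (50%) with 0 called higher. The median log2 fold change was -0.63, or -0.43 with the covariate, and 11 fell without responder 5 but 3 without responders 1 and 4. The covariate median was -0.17 without responder 1 and -0.62 without responder 5. The shared light chain gene B2m (ENSMUSG00000060802.8, chr2:122147686-122153083, plus strand) was at 1120.4, 2169, 2432, 942, 4595, 1581, 808 and 1293 CPM in responders 1 to 8. In stable tumours it was at 3305 to 4570.2 CPM, with a median of 3823. Responder 5 lay above every stable tumour and the other 7 responders below. B2m fell by 1.04 (SE 0.31, adjusted p = 0.0179), or -0.52 with the covariate, and kept its call when any 1 tumour was left out but not without responders 1 and 4 together (-0.86). The peptide makers and trimmers Psme1, Psme2, Psmb8 and Erap1 fell by 0.77 to 0.86, and the loading chaperones Calr, Pdia3 and Tapbpl by 0.69 to 0.76, with adjusted p from 0.00559 to 0.0347. The heavy chain genes H2-K1 (-0.51, adjusted p = 0.110) and H2-D1 (-0.51, adjusted p = 0.124) did not pass. Nlrc5, the transactivator of these genes, had an opposite estimate of 0.64 (SE 0.25, adjusted p = 0.0539).

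MHC class II genes, which show peptides to CD4 T cells from macrophages, dendritic and B cells, had a median of -0.77 (-0.51 with the covariate), but 1 of 11 passed. That gene, H2-DMb2 (-0.89, SE 0.31, adjusted p = 0.0355), lost its call when any of 9 tumours was left out. H2-Aa, at 961 to 3529.7 CPM in responders and 2392 to 3457 CPM in stable tumours, illustrates the spread: responder 5 was the highest of the 14 and the other 7 responders were the lowest (-0.87, SE 0.38, adjusted p = 0.0842). Without responder 5, 8 of the 11 passed. The covariate median was -0.19 without responder 1 and -0.92 without responder 5.

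Type I interferon antiviral genes were lower too. Of 28 tested members 11 fell (39.3%) and 1 rose, with a median of -0.51, or -0.45 with the covariate (-0.41 without responder 1 and -0.46 without responder 5). With no scaling factor 5 fell, with a median of -0.35, and in limma on log2(RPKM + 1) the median was -0.25. The list's mean log2 CPM was 4.99, 4.53, 5.31, 4.66, 5.12, 4.85, 5.43 and 5.14 in responders 1 to 8 and between 5.22 and 5.80 in stable tumours. Responder 5 lay below every stable tumour here, while responders 3 and 7 lay inside the stable range. Among responders the median slope of the list on the protein-coding share was 0.04 log2 units per 10 percentage points, against 0.01 for all genes tested. Leaving out 1 tumour gave from 6 members lower (without responder 2) to 13 (without responder 5), and 4 were lower without responders 1 and 4.

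The promoters of this list were searched for the interferon-stimulated response element, a DNA element known from interferon-induced genes. It was searched as GAAA, any 2 bases and GAAA again on both strands of the 250 bases before the start, overlapping copies allowed, in RefSeq promoters of GRCm38.p6. It was found in 10 of the 22 members with a promoter in the table (45.5%), in 11 of 20 of the interferon gamma list (55.0%) and in 1 of 13 of the MHC class I list. Among all 16522 genes of the count table with a promoter it was in 3.55%, and among 20150 promoter windows in 3.02%. Of the 10 members that fell and had a promoter, 5 held it: Ifit1, Ifit3, Ifit3b, Isg15 and Bst2. A match is a description of letters, and binding was not measured. The promoters of Bst2 (chr8:71537473-71537722, minus strand), Ifit3b (chr19:34607707-34607956, plus strand) and Ifit3 (chr19:34583279-34583528, plus strand) are printed because these genes are described next, with the element in capitals. In Bst2 the capitals hold overlapping copies, 130 to 115 bases before the start. In Ifit3b and Ifit3 the copies read on the opposite strand and span 188 to 145 and 156 to 113 bases before the start.
Bst2: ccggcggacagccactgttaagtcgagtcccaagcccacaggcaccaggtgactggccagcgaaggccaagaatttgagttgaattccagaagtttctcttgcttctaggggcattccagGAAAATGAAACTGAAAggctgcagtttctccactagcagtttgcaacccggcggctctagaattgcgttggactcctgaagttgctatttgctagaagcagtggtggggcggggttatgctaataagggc
Ifit3b: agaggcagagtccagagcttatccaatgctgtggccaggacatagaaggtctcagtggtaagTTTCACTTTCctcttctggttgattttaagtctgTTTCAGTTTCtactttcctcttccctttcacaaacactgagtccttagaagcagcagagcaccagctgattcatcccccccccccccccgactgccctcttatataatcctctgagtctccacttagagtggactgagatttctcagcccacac
Ifit3: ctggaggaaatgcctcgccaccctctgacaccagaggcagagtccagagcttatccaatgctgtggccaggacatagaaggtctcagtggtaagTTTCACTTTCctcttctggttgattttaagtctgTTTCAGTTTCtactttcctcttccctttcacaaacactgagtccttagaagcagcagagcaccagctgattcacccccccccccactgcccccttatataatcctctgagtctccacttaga

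Bst2 (ENSMUSG00000046718.8), which encodes tetherin, a membrane protein that holds budding viruses on the cell, was at 81.5 to 184 CPM in responders, with a median of 103. In stable tumours it was at 136 to 262 CPM, with a median of 205. The groups overlapped through responders 3 and 5 and stable 1. Bst2 fell by 0.86 (SE 0.22, adjusted p = 0.00817), or -0.73 with the covariate (SE 0.28), and kept its call when any 1 tumour, or responders 1 and 4, were left out. Ifit3b (ENSMUSG00000062488.9), whose family binds foreign RNA, was at 4.54 to 17.6 CPM in responders (median 9.65) and 16.3 to 35.0 CPM in stable tumours (median 19.8). It fell by 1.08 (SE 0.29, adjusted p = 0.00977), or -0.79 with the covariate (SE 0.38), with the same stability. Ifit3, Ifit2, Ifit1, Isg15, Rtp4, Ifi44 and Cmpk2 fell by 0.65 to 0.92. Ifit3 and Ifit3b are near-identical neighbours and their counts cannot be told apart with certainty. The sensor gene Ifih1 was below every stable tumour in all 8 responders (-0.57, SE 0.17, adjusted p = 0.0150). Oas2, which makes the messenger that activates RNase L, rose, with a log2 difference of 1.00 (SE 0.36, adjusted p = 0.0396), against the direction of the list.

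**Figure D3:**
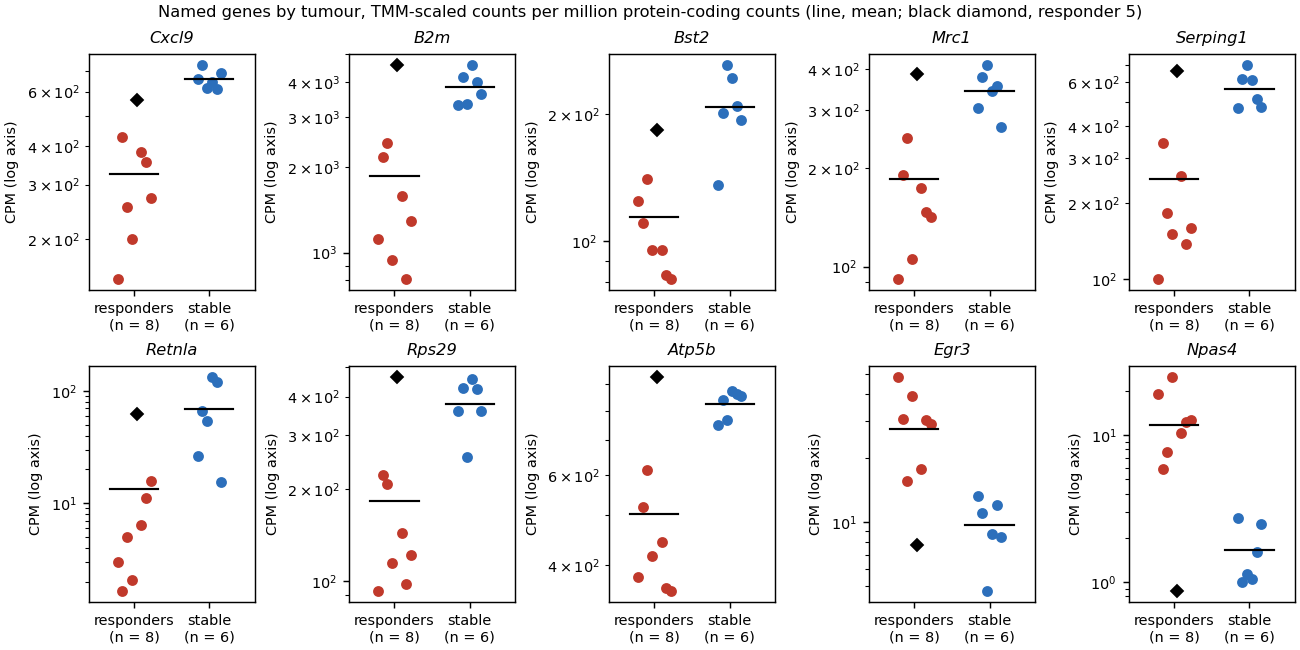
Level of 10 genes in each of the 14 tumours, as TMM-scaled CPM within protein-coding genes on log axes, with the arithmetic mean of each group as a line. Responder 5 (black diamond) lies among or above the stable tumours for B2m, Mrc1, Serping1, Rps29 and Atp5b, below all of them for Cxcl9, and among the low values for Egr3 and Npas4.

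Macrophage genes were lower in responders, most of all those of tissue-resident and alternatively activated macrophages. Of 20 general macrophage markers 7 fell (35.0%) and 1 rose, with a median of -0.62 (-0.36 with the covariate). Of these 7, 3 were complement genes, a class that also has its own list below. Of 22 resident and alternatively activated markers 11 fell (50%) and 0 rose, with a median of -1.05 (-0.54 with the covariate). The mean log2 CPM of the latter list was 2.73 to 3.56 in 7 responders, 5.17 in responder 5 and 4.10 to 5.20 in stable tumours. Its summed CPM overlapped more, at 793 to 3613 in responders (median 2025) and 1627 to 3734 in stable tumours (median 2393). In that sum responders 1, 2, 3 and 5 lay inside the stable range. Leaving out 1 tumour gave from 6 resident markers lower (without stable 5) to 15 (without responder 5). For the general markers it gave from 3 (without responder 4) to 9 (without responder 5). Without responders 1 and 4 the numbers were 3 and 2. The covariate median of the resident list was 0.01 without responder 1 and -1.01 without responder 5, and that of the general markers -0.04 and -0.70.

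Among receptors, Mrc1 (ENSMUSG00000026712.3, chr2:14229392-14332057, plus strand), the mannose receptor of alternatively activated macrophages, was at 91.7 to 386 CPM in responders, with a median of 160. In stable tumours it was at 266 to 412 CPM, with a median of 349, and only responder 5 lay in that range. Mrc1 fell by 0.89 (SE 0.25, adjusted p = 0.0120), or -0.30 with the covariate (SE 0.22), and kept its call without any 1 tumour and without responders 1 and 4. Fcgr1, the high-affinity receptor for antibody, was at 13.0 to 54.4 CPM (median 19.8) and 39.8 to 79.7 CPM (median 51.7) and fell by 1.13 (SE 0.27, adjusted p = 0.00640), or -0.58 with the covariate, with the same stability. Adgre1, which encodes F4/80, fell by 1.05 (SE 0.27, adjusted p = 0.00797). Mertk, a receptor for dying cells, was the member that rose (0.44, SE 0.14, adjusted p = 0.0270), and the level in 3 of 8 responders exceeded that of every stable tumour. Secreted Retnla, a product of interleukin-4-activated macrophages, had the lowest fold change of all called genes with a mean of at least 5 CPM. It was at 2.96, 1.65, 4.97, 2.08, 61.8, 6.44, 11.1 and 15.6 CPM in responders 1 to 8 and at 15.4 to 133 CPM in stable tumours. It fell by 2.32 (SE 0.68, adjusted p = 0.0159), by 3.38 without responder 5, and its call was lost without responders 1 and 4 (-2.03). The lectin genes Cd209a, Cd209b, Cd209d and Cd209f and the scavenger receptor genes Cd163, Lyve1 and Folr2 fell by 1.13 to 2.32. The Cd209 genes are near copies of one another. Arg1 (0.02) and Chil3 (0.12), other genes of alternative activation, did not pass, with adjusted p of 0.985 and 0.945.

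Complement genes, many of them made by macrophages and fibroblasts, showed a median of -0.85 (-0.46 with the covariate), with 10 of 17 lower (58.8%) and 0 higher. The covariate median was -0.13 without responder 1 and -0.87 without responder 5. All 7 tested genes of the classical and lectin routes fell: C1qa, C1qb, C1qc, C1ra, C1s1, C2 and C4b. The inhibitor gene Serping1 (ENSMUSG00000023224.12, chr2:84765387-84775444, minus strand) was at 100.3, 343, 182, 151, 660, 256, 137 and 159 CPM in responders 1 to 8 and 474 to 700 CPM in stable tumours. Only responder 5 reached the stable range. Serping1 fell by 1.18 (SE 0.39, adjusted p = 0.0270), or -0.52 with the covariate, a call lost without responder 1, 4, 7 or 8 or stable 2, 3 or 4. The receptor genes C3ar1 (-0.63, adjusted p = 0.0724) and C5ar1 (-0.16, adjusted p = 0.555) did not pass. The number of complement genes lower was 2 without responder 4, 12 without responder 5 and 0 without responders 1 and 4, with 17 tested each time. Cathepsin and lysosome genes, the digestive enzymes of macrophages and other cells, fell in 15 of 23 (65.2%), with a median of -0.64 (-0.38 with the covariate), and in 8 without stable 3. Their covariate median was 0.02 without responder 1 and -0.60 without responder 5. Ctsd was at 644 to 2077 CPM in responders (median 1008) and 1292 to 2953 CPM in stable tumours (median 1784), and fell by 0.76 (SE 0.26, adjusted p = 0.0327) and did not pass without any one of 8 tumours.

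T cell markers gave no called gene. Of 16 T cell genes 0 passed in edgeR's quasi-likelihood test, with 1 at an unadjusted p under 0.05 and 0 in DESeq2 or in limma on log2(RPKM + 1). Their median of -0.03 (0.04 with the covariate) equalled that of all genes and changed sign in 13 of 26 settings. Of 16 CD8 and cytotoxic genes 0 passed, with 1 at an unadjusted p under 0.05, 0 in DESeq2 and 1 lower in limma, and a median of -0.29 (0.02 with the covariate). Without responder 5, 1 of 16 T cell genes and 2 of 16 CD8 and cytotoxic genes were lower. These shares were below the 24.3% of all genes lower in that fit. The CD8 median was then -0.50. Lck, a T cell kinase, was at 31.0 to 63.0 CPM in responders and 36.9 to 58.6 CPM in stable tumours, with a log2 difference of 0.01 (SE 0.33, adjusted p = 0.983). Cd8a was at 26.0 to 79.1 and 23.5 to 69.4 CPM (0.33, SE 0.43, adjusted p = 0.574), and Cd3e at 15.4 to 33.4 and 9.71 to 28.6 CPM (0.43, SE 0.35, adjusted p = 0.359). The groups overlapped in all 3 genes, and a p that misses the threshold does not show that the levels were the same. The chemokine gene Ccl5, a product of activated CD8 T cells, was at 42.6 to 187 CPM (median 73.3) and 144 to 224 CPM (median 188), and its fold change of -0.98 did not pass (SE 0.44, adjusted p = 0.0853), but it passed without responder 5 (-1.20, adjusted p = 0.0305).

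Regulatory T cell genes and inhibitory checkpoints held few called members, with medians of -0.10 and -0.24 (0.23 and 0.17 with the covariate). Among 13 regulatory T cell genes 1 fell, Ebi3, a cytokine subunit (-0.96, adjusted p = 0.0325), a call lost without any one of 8 tumours. Foxp3, the factor that defines these cells, was at 7.32 to 14.3 CPM in responders and 6.29 to 13.6 CPM in stable tumours (0.15, SE 0.35, adjusted p = 0.769). Among 12 checkpoint genes Lgals9, which encodes the ligand galectin-9, fell by 0.62 (SE 0.14, adjusted p = 0.00480), or -0.40 with the covariate, with 7 of 8 responders below every stable tumour and the call kept without any 1 tumour. Tigit had an estimate of 0.90 (SE 0.41, adjusted p = 0.0925), with 6 of 8 responders above every stable tumour. In the B and plasma cell, neutrophil and mast cell lists 0 of 12, 0 of 14 and 0 of 10 genes passed in edgeR, with 0, 0 and 3 at an unadjusted p under 0.05. DESeq2 called 0, 0 and 2 of them lower. Of 16 dendritic cell genes 1 fell, Cd209a, which resident macrophages also express. Without responder 5, 5 of 16 fell, against 24.3% of all genes. The call of Cd209a was lost without any one of 11 tumours and with no scaling factor.

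**Figure D4:**
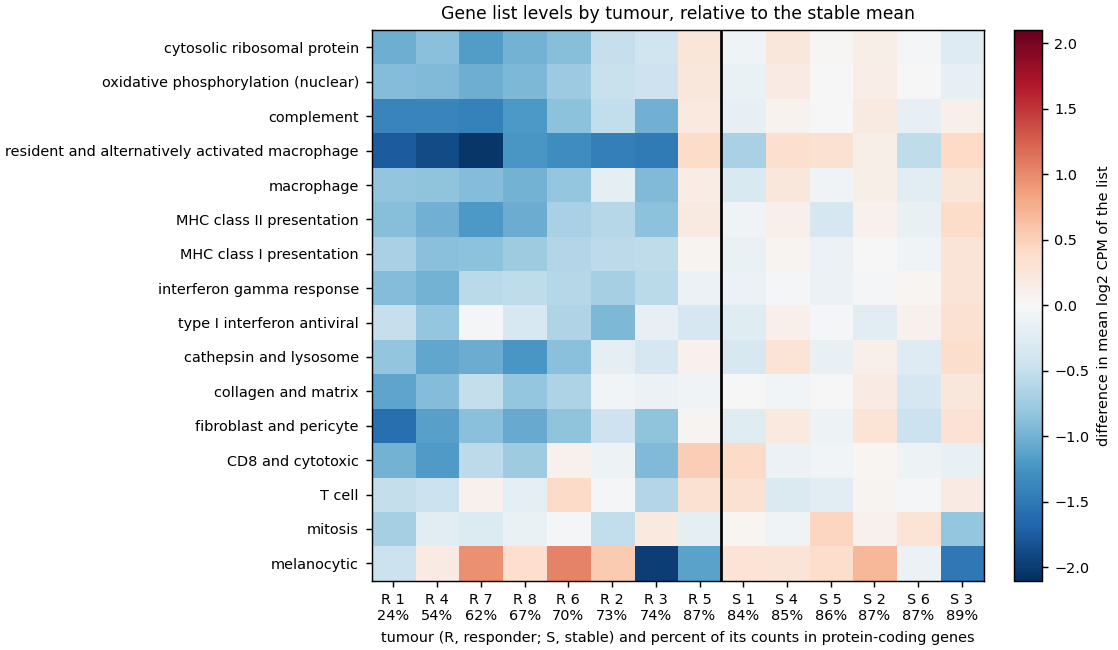
Mean log2 CPM of 16 gene lists in each tumour, as the difference from the mean of the 6 stable tumours, with tumours ordered by protein-coding share within each group. Responder 5, the responder with 87% of counts in protein-coding genes, resembles the stable columns in the ribosomal protein, oxidative phosphorylation, complement and macrophage rows. In the T cell row responders 1 and 4 are low and responder 5 is high, but responder 3 is the lowest responder. The melanocytic row does not follow the order of shares.

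Stromal genes were lower in part. Of 31 collagen and matrix genes 11 fell (35.5%) and 0 rose, with a median of -0.43 (-0.15 with the covariate), and of 14 fibroblast and pericyte genes 5 fell (35.7%), with a median of -0.64 (-0.11 with the covariate). Leaving out 1 tumour gave 6 matrix genes lower without responder 1 and 15 without responder 5, and 4 without responders 1 and 4, and 9 fibroblast and pericyte genes lower without responder 5. The fibril collagen genes differed among themselves: Col3a1 fell by 0.69 (SE 0.24, adjusted p = 0.0310) and did not pass without any one of 6 tumours, while Col1a1 (0.32, adjusted p = 0.467) and Col1a2 (-0.26, adjusted p = 0.397) did not pass. Col14a1, a collagen that sits on the surface of fibrils, was at 26.6 to 118 CPM in responders (median 60.3) and 58.7 to 332 CPM in stable tumours (median 170). It fell by 1.5 (SE 0.37, adjusted p = 0.00706), or -0.81 with the covariate, and the groups overlapped in 4 responders. Pi16, a marker of perivascular fibroblasts, was at 3.78 to 7.77 CPM in 7 responders, 28.8 CPM in responder 5 and 8.39 to 90.4 CPM in stable tumours, and fell by 2.06 (SE 0.52, adjusted p = 0.00746), or -1.45 with the covariate. Dpt (-1.63), Lum (-1.42), Mmp2 (-0.91) and Gsn (-0.94) also fell. Of 16 endothelial genes 4 fell (25.0%, median -0.37, or -0.19 with the covariate), among them Tek, the angiopoietin receptor (-1.09, adjusted p = 0.0274), and 0 did so without responders 1 and 4. The number was 1 without stable 4, and Tek lost its call without responder 8 or stable 2, 3 or 4.

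The broadest differences were in genes of protein synthesis and energy supply. Of 79 cytosolic ribosomal protein genes 71 fell (89.9%) and 0 rose, with a median of -0.64. Of 67 nuclear-encoded oxidative phosphorylation genes 57 fell (85.1%) and 0 rose, with a median of -0.59. With the covariate the medians were -0.29 and -0.26, and responder 5, at 8.91 and 6.28 mean log2 CPM, lay above every stable tumour (8.38 to 8.89 and 5.87 to 6.22), with all other responders below. The covariate medians were -0.01 and 0.05 without responder 1, and -0.59 and -0.55 without responder 5. Their genes were short, with medians of 1770 and 1756 exon bases. Without stable 4 the numbers lower were 44 and 29, and without responders 1 and 4 they were 21 of 79 and 15 of 67.

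Rps29 (ENSMUSG00000034892.8, chr12:69157722-69159186, minus strand), a protein of the small ribosomal subunit, was at 92.9 to 222 CPM in 7 responders, 464 CPM in responder 5 and 254 to 455 CPM in stable tumours. It fell by 1.05 (SE 0.28, adjusted p = 0.00931), or -0.47 with the covariate, and by 1.41 without responder 5. All 15 tested subunits of ATP synthase and all 10 of complex IV fell, and 21 of 29 of complex I did. Atp5b (ENSMUSG00000025393.12, chr10:128083273-128090391, plus strand), the catalytic beta subunit, was at 356 to 614 CPM in 7 responders, 930.3 CPM in responder 5 and 751 to 872 CPM in stable tumours. It fell by 0.71 (SE 0.23, adjusted p = 0.0242), or -0.34 with the covariate, a call lost without responder 8 and without responders 1 and 4. Of the mitochondrial genome's own 13 messenger RNAs 0 passed in edgeR, with 2 at an unadjusted p under 0.05 and 1 higher in DESeq2. The median of their summed level was 5762 CPM among the responders, against 8726 CPM among the stable tumours, and no test compared them with the nuclear list. The median log2 fold change of 0.03 (-0.09 with the covariate) changed sign in 7 of 23 settings.

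Replication-dependent histone genes fell in 36 of 53 (67.9%), with a median of -0.64 (-0.23 with the covariate) and a median of 524 exon bases. The covariate median was -0.06 without responder 1 and -0.35 without responder 5. Most messenger RNAs of this family end in a stem-loop and not in a poly(A) tail. Leaving out stable 2 gave 23 lower, and leaving out responders 1 and 4 gave 19. The linker histone gene Hist1h1c was at 86.7 to 133 CPM in 7 responders, 200 CPM in responder 5 and 174 to 207 CPM in stable tumours, and fell by 0.67 (SE 0.15, adjusted p = 0.00358). Of 23 DNA replication genes 6 fell (26.1%), with a median of -0.31 (-0.07 with the covariate), and of 22 mitosis genes 1 fell, with a median of -0.34 (-0.02 with the covariate). Pcna, the sliding clamp of DNA polymerase, fell by 0.80 (SE 0.22, adjusted p = 0.0112), or -0.28 with the covariate. The mitosis list gave 6 members lower without stable 3 and 0 without responder 1.

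Of 19 endoplasmic reticulum and integrated stress genes 7 fell (36.8%), 5 of them chaperones, with a median of -0.49 (-0.28 with the covariate), and 2 did so without stable 4. Their covariate median was 0.00 without responder 1 and -0.43 without responder 5. Of the 24 immediate early and heat shock genes together 4 fell (16.7%) and 1 rose, a share lower that is close to the 15.8% of all genes. The heat shock genes Hsp90aa1, Hspa8, Hspe1 and Dnajb1 fell by 0.40 to 0.72, of which 0 kept the call without responder 1. Of 15 immediate early genes, which switch on within minutes of a stimulus, 1 rose: Egr3. It was at 48.2, 30.4, 15.6, 39.3, 7.77, 17.7, 30.2 and 28.8 CPM in responders 1 to 8 and at 4.71 to 13.3 CPM in stable tumours. All responders but responder 5 lay above every stable tumour. The log2 rise of Egr3 was 1.48 (SE 0.46, adjusted p = 0.0195), or 0.46 with the covariate, a call lost without responders 1 and 4 (1.15). Of 26 hypoxia and glycolysis genes 2 rose and 2 fell (7.69% each), below the shares of all genes, with a median of -0.23 (-0.03 with the covariate). The vessel growth factor gene Vegfa, at 119 to 281 CPM and 91.5 to 139 CPM, rose by 0.73 (SE 0.21, adjusted p = 0.0148), Kdm3a rose by 0.37 (adjusted p = 0.0198), and Adm and Hif1a fell by 1.08 and 0.77 (adjusted p = 0.0373 and 0.0229). Adm lost its call without any one of 8 tumours, with no scaling factor and in limma, and Hif1a without stable 3 or 4. Of 17 glycolysis genes 0 passed. Of 16 p53 targets Eda2r (-0.90) and Ccng1 (-0.82) fell, a share of 12.5% that is below the 15.8% of all genes.

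**Figure D5:**
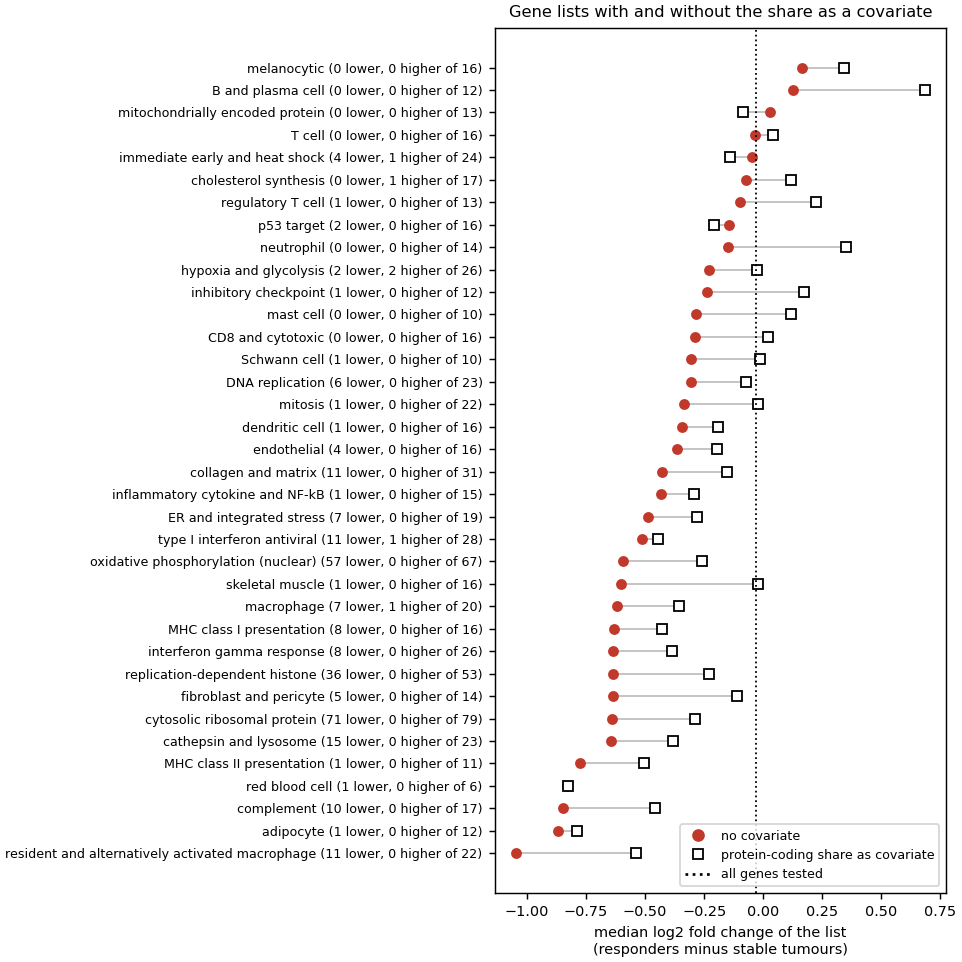
Median log2 fold change of 36 gene lists (responders minus stable tumours) without a covariate (red) and after adding the protein-coding share to the fit (open squares), with the numbers called in brackets. The dotted line is the median of all 14881 genes, and the ribosomal protein median goes from -0.64 to -0.29 where the type I interferon median goes from -0.51 to -0.45; the keratinocyte and hair list (1.85 to 0.13) lies off the scale and is left out.

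No melanocytic gene was called between the outcomes, which does not show that the levels were the same. Of 16 tested 0 passed in edgeR or DESeq2, with 1 at an unadjusted p under 0.05 and a median of 0.16 (0.34 with the covariate, -0.15 without responder 1 and 0.95 without responder 5). Sox10, the lineage factor of melanocytes and Schwann cells, was at 169 to 409.8 CPM in responders and 155 to 323 CPM in stable tumours (0.25, SE 0.17, adjusted p = 0.254), and was detected in every tumour. The pigment genes were low and uneven: Dct was at 0.21 to 253 CPM in responders and 3.64 to 49.8 CPM in stable tumours, and Mlana at 0 to 8.58 CPM and 1.86 to 9.36 CPM. Responder 3 and responder 5 had the lowest melanocytic levels of the responders, at 1.5 and 2.35 mean log2 CPM, and stable 3, at 1.98, had the lowest of its group.

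Marker lists of skin, muscle, fat, nerve and blood held few called genes. Keratinocyte and hair genes had a median log2 fold change of 1.85 (0.13 with the covariate, -1.61 without responder 1), with 0 of 14 called in edgeR, 3 at an unadjusted p under 0.05 and 2 higher in DESeq2. The responders' mean log2 CPM spanned -1.24 to 5.85, and that of the stable tumours 1.02 to 4.55. For skeletal muscle genes the spans were 2.91 to 6.60 and 5.10 to 6.64, with a median log2 fold change of -0.60 (-0.02 with the covariate). Their covariate median was -0.94 without responder 1 and 0.55 without responder 5. Of these 16 genes 1 was called lower (Mylpf, a fast muscle light chain, whose call was lost without any one of 11 tumours). The part of these tissues in the other results was not tested. Adipocyte and Schwann cell genes gave 1 of 12 and 1 of 10 lower, and Hba-a1, a globin chain of red blood cells, was the called member of 6. It was at 1.10 to 4.93 CPM in responders and 6.84 to 8.79 CPM in stable tumours, with no overlap, and fell by 1.31 (SE 0.42, adjusted p = 0.0244).

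Among all called genes with a mean of at least 5 CPM, the 6 lowest fold changes belonged to Retnla, Pi16, Ogn, Fcna, C6 and Efemp1. With the covariate their log2 fold changes were -1.32, -1.45, -0.93, -1.16, -1.22 and -1.27, in that order. Ogn, the matrix proteoglycan osteoglycin, was at 1.18 to 7.63 CPM in 7 responders, 37.7 CPM in responder 5 and 17.9 to 60.3 CPM in stable tumours, and fell by 2.14 (SE 0.55, adjusted p = 0.00832). Efemp1, a fibulin of elastic matrix, fell by 2.03, Fcna, a ficolin that starts the lectin route of complement, by 2.10, and C6, a part of complement's membrane attack complex, by 2.09. Below every stable tumour lay 7 responders for Efemp1, 5 for Fcna and 7 for C6. The 6 highest are given as log2 fold changes without and then with the covariate. They were Cyp2g1 (4.83, 3.83), Elovl4 (3.41, 2.01), Atg9b (3.06, -0.80), Car12 (2.90, 0.50), Npas4 (2.81, 1.23) and Lcn2 (2.68, 3.75). Of these, Npas4, an activity-induced transcription factor, was at 0.87 CPM in responder 5, 5.86 to 25.0 CPM in the other 7 responders and 0.998 to 2.73 CPM in stable tumours, and kept its call without any 1 tumour and without responders 1 and 4. Car12, a carbonic anhydrase, lay above every stable tumour in 6 responders and Elovl4, a fatty acid elongase, in 5. Car12 kept its call without any 1 tumour but lost it without responders 1 and 4 (1.73), and was at 53.9 CPM in responder 1. Cyp2g1 was at 11.5 to 42.5 CPM in responders 1, 6 and 8 and at most 1.76 CPM elsewhere, and Lcn2 was at 28.1 and 99.0 CPM in responders 3 and 2 and at most 6.57 CPM elsewhere. Cyp2g1, Elovl4, Atg9b and Lcn2 lost their calls without 10, 8, 6 and 8 of the 14 tumours, one at a time, and Lcn2 had a log2 fold change of 1.00 without responder 2 and Atg9b of 1.73 without responder 1.

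Within the 8 responders, all labelled with the same outcome, levels were also set against the protein-coding share. Of the 14881 genes 4 passed (0.0269%; 0.0134% in each direction), with 3692 at an unadjusted p under 0.05. Nckap5 and Fchsd1 fell with the share, by 0.54 and 0.27 log2 units per 10 percentage points (adjusted p = 0.0392 and 0.0424). Cyp7b1, an oxysterol hydroxylase, and Myl12b, a myosin regulatory light chain, rose with it, by 0.58 and 0.39 (adjusted p = 0.0392 and 0.0424). The number rested on single tumours: 803 genes (5.40%; 3.45% rising and 1.95% falling with the share) passed without responder 1, 1 without responder 5 and 0 without any other single responder. Without responder 1 the lowest and highest shares were 54.2% and 87.0%, the latter in responder 5. In that fit 32 of 67 oxidative phosphorylation genes, 24 of 79 ribosomal protein genes and 10 of 53 histone genes rose with the share. So did 6 of 17 complement, 5 of 16 MHC class I and 5 of 20 general macrophage genes. Of the type I interferon, MHC class II and collagen and matrix lists 0 of 28, 0 of 11 and 0 of 31 did. Counts of 0 lie close to the 3.45% of all genes and do not set these lists apart. Over all 8 responders the median slope was 0.16 for ribosomal protein genes, 0.15 for oxidative phosphorylation, 0.22 for complement, 0.29 for resident macrophage, 0.09 for interferon gamma and 0.04 for type I interferon genes. Without responder 1 the same medians were 0.36, 0.34, 0.52, 0.67, 0.23 and 0.03. For the CD8 and cytotoxic list the median was 0.22, or 0.38 without responder 1. The MHC class II median was 0.12, or 0.40 without responder 1, and that of collagen and matrix 0.15, or 0.24. Genes called higher in responders had a median slope of -0.14 and those called lower 0.12. The slopes share the 8 responder libraries with that difference, and differences between lists in slope were not tested.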

How the data were processed

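RNA-seq libraries of 25 tumours were aligned to mm10 with STAR 2.5.1 and quantified with RSEM 1.2.22 after bcl2fastq 2.17 and Trimmomatic, per the submitters' processing notes. The authors deposited RSEM expected counts per gene, of which 5.64% of values were not whole, and a table of RPKM values. The design assumed whole counts, so the expected counts were rounded. The labels name both a stranded total RNA kit and polyA RNA, which could not be reconciled, and number the libraries group by group, so library order and outcome cannot be told apart. All 55450 genes matched GENCODE M21, which gave biotypes and exon lengths.

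Protein-coding genes (21951, of which 14881 passed edgeR's filterByExpr) were scaled by TMM and fitted over 4 groups with edgeR 4.0.16 (quasi-likelihood, R 4.3.3), with Benjamini-Hochberg adjustment over all genes at 0.05. Other fits added the protein-coding share or regressed the 8 responders on it. The 11 composition shares were compared by exact permutation over 3003 splits, and 0.000333 is the smallest p these allow. DESeq2 1.42.0, and limma 3.58.1 on log2(RPKM + 1) or log2(RPKM + 0.1), were alternatives. On simulated data with 200 changed genes of 14718, the test recovered 75% of the 2-fold and 90% of the 4-fold changes, and 6.78% of its calls were false. The changed genes lay above a count floor, and all tumours otherwise shared a common mean profile. No simulated difference between groups was tied to the protein-coding share, so these rates need not hold for the real libraries. The slope fit recovered 71.5% of simulated slopes.

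The 37 gene lists (790 entries, 781 tested), their members and the comparison were chosen with earlier results of these data known. Named genes were, per list, the called members with the largest absolute fold change and the highest mean CPM (with none called, the highest mean CPM). Over all genes they were the 6 highest and 6 lowest fold changes among called genes of at least 5 CPM, and up to 5 in each direction for the covariate and slope fits. Predicted genes were left out of the latter. Other list members are named as examples chosen after their values were seen. The gene filter of the slope fit was also changed after the data were seen. Some named items and 1 sequence are not reported here.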

Additional observations from a re-analysis of the deposited data

Results flagged for a closer look

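A sample far from the others of its group was looked for in 88 groups of values (composition shares and list levels), where chance alone flags about 1 in 20. In composition, responder 1 stood apart in 7SL RNA at 47.0% of counts and in mitochondrial ribosomal RNA at 14.3%, and stable 5 in mitochondrial ribosomal RNA at 7.28%. In mean log2 CPM of a list, responder 5 stood above the other responders in MHC class I presentation (8.81), MHC class II presentation (8.66) and resident and alternatively activated macrophage genes (5.17). Responder 1 stood below them in skeletal muscle genes (2.91). Among stable tumours, stable 1 was high in CD8 and cytotoxic genes (4.62), stable 2 was high in B and plasma cell genes (3.31) and stable 3 was low in melanocytic genes (1.98).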

How the results depend on the processing

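No paired analysis was possible because the labels give the groups no shared replicate numbers. The 4615 calls between outcomes became 0 against a 2-fold threshold, 2052 without responders 1 and 4 (added after seeing the data) and 3021 to 6518 with 1 tumour left out. They stayed within 1.5 times under the other settings, among them DESeq2 (5173), limma on log2(RPKM + 1) (4907) and all genes (6891). With the covariate, leaving out 1 tumour gave 0 to 929. The 4 slope calls became 104 with DESeq2-type size factors, 208 with a stricter count filter, 662 with a log10 ratio as covariate, 199 with a filter on the responders alone (added after seeing the data), 0 without the 2 tumours farthest from the median share, and 0 to 803 with 1 responder left out. The cause was not tested. Of the comparisons of named genes with their value under another setting, 1390 kept their side of the threshold, 330 lost it and 7 gained it. A change of sign with a call under either setting occurred in 0 of these. Some uncalled genes did change sign, such as Krt71 (0.28, and -0.34 without responder 2). The covariate fit was not among the settings of these comparisons. With the covariate some called genes changed sign: Atg9b went from 3.06 to -0.80 and Fchsd1 from 0.52 to -0.11. Nckap5, called higher without the covariate, went to -0.004 with it. For composition the numbers were 156 kept, 6 lost and 3 gained, and of the list counts 1568 stayed within 1.5 times and 350 did not. Depth was lowest in responder 1, with 3.15 M protein-coding counts, which limits genes of few counts there. Intervals for single counts were not used, since reads without molecular identifiers are not independent molecules.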
